A study of Mus musculus with 8 samples.

Results

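The insulin-like growth factor (IGF) genes described here are the ligands Igf1 and Igf2 and the binding proteins Igfbp2, Igfbp3, Igfbp4, Igfbp5, Igfbp6 and Igfbp7. They were taken by name from the probe annotation, which gave 8 of the 12393 genes on the array and 19 of the 20380 probe sets with 1 gene symbol. Hearts of male mice aged 2 to 4 months, of the strains C57BL/6 and MRL/MpJ, were taken untreated or on day 3, 30 or 60 after ligation of the left anterior descending (LAD) coronary artery, which cuts off blood to part of the left ventricle. MRL/MpJ is a strain known for closing ear holes with little scar. Total RNA of the left ventricle was hybridised to Affymetrix arrays, 1 array for each strain and time point, 8 in all. The untreated mice are not described as sham-operated, so surgery and ligation cannot be told apart here. The labels do not say whether an array held 1 animal or a pool, nor which zone of the ventricle was cut out.

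IGF1 and IGF2 are small secreted proteins that act through the IGF1 receptor, a tyrosine kinase that drives growth and survival through the PI3K and AKT kinases. IGF1 is made by the liver under growth hormone and locally in many tissues, and IGF2 is an imprinted fetal growth factor that is made far less after birth in the mouse. The binding proteins hold IGFs outside the cell, carry them, keep them from the receptor or release them when cut by proteases. IGFBP7 is a distant relative that binds IGFs weakly.

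The signals are the authors' MAS5 values on a linear scale, which have no unit of their own and can be compared between arrays for 1 probe set but not between probe sets. Where a gene had several probe sets, the one with the highest mean log2 signal stands for it. The array medians ran from 112.8 to 139.5. The array of C57BL/6 on day 30 stood apart from the rest. Its Pearson correlations with the other arrays over all genes were 0.844 to 0.877, against 0.884 to 0.948 for the 21 other pairs, and its brightest probe set read 75193, where no other array exceeded 38118. Most counts, medians and fitted values for day 30 against untreated are therefore given with and without it. The other comparisons also use this array, and many of their values are given only with it. Ventricular cardiomyocyte markers (8 genes such as Myl2 and Myh6) were bright on all arrays, with summed signals of 163131 and 180373 in the untreated hearts and 155963 to 312495 after ligation. Of the atrial markers, Nppa, a natriuretic peptide gene that stressed ventricles also switch on, read 3455 and 5781 untreated and 6605 to 41056 after ligation. Myl4, Myl7 and Sln went both ways. Sln read 251 and 235 untreated, 858 to 3254 on 4 ligated arrays, and 6.1 and 6.7 on MRL/MpJ day 3 and C57BL/6 day 60, where Myl4 and Myl7 were also below the untreated arrays.

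On the main probe sets, 4 of the 8 genes (Igf1, Igfbp3, Igfbp4 and Igfbp6) had a higher signal on all 6 arrays from ligated hearts than on either untreated array. Over all 12393 genes the share with that pattern was 5.83%. The count was again 4 of the 8, against 7.21% of all genes, when the array that stood apart was left out. On day 60 both arrays lay above both untreated arrays for 8 of the 8 genes, against 18.9% of all genes. On day 3 this held for 5 of the 8 (Igf1, Igf2, Igfbp3, Igfbp4 and Igfbp6), against 22.3%, and on day 30 for 5 of the 8 (Igf1, Igfbp2, Igfbp3, Igfbp4 and Igfbp6), against 19.7%. The MRL/MpJ day 30 array alone lay above both untreated arrays for 6 of the 8, against 31.4%. None of these differences passed the test, so they are given as values. The comparisons share the 2 untreated arrays, so a low signal there enters all of them.

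The test was limma's moderated test on log2(signal + 28.6), with strain and time point in the model and Benjamini-Hochberg adjustment over the 8195 genes that reached a signal of 121 on at least 2 arrays. With 1 array per strain and time point, the error comes from how far the strains disagree about the time course, and p-values measure only that spread between arrays. Igfbp2 did not reach the signal limit and was not tested. Igfbp3 reached it only through 3 ligated arrays and on 0 untreated arrays, so it could enter the test only by being higher after ligation. No test of the other 7 genes was called at an adjusted p under 0.05. The share of genes called was 0% on day 3, 0.0122% on day 30 and 0.0366% on day 60. Igfbp3 is therefore left out of the next counts. At an unadjusted p under 0.05, 3 of the other 6 tested IGF genes passed on day 3, 3 on day 30 and 4 on day 60, where 6.53%, 11% and 10.6% of all tested genes passed. On day 30 the count was 2 of the 6, against 9.58% of all tested genes, with the C57BL/6 array of that day left out. For all 8 genes without the signal limit, the median log2 difference was 0.76 on day 3, 0.74 on day 30 and 0.92 on day 60. The medians over all 12393 genes were 0.04, 0.04 and -0.06. Leaving out the array that stood apart gave day 30 medians of 0.50 for the 8 genes and -0.05 for all genes.

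Fibroblast and macrophage markers were also higher after ligation. All 8 fibroblast markers (such as Col1a1, Dcn and Postn) were above 0 on days 3 and 60, with median log2 differences of 2.02 and 1.37. Their summed signal was 9139 and 9434 in the untreated C57BL/6 and MRL/MpJ hearts, 27884 and 55836 on day 3, 24733 and 29062 on day 30 and 22713 and 28837 on day 60. All 8 macrophage markers were likewise above 0 on days 3 and 60 (medians 1.09 and 0.80), with sums of 6150 and 4074 untreated and 8435 to 11630 after ligation. The 7 endothelial markers summed to between 4652 and 6256 over the 8 arrays, with medians of -0.13, -0.19 and -0.19 on days 3, 30 and 60. The 7 smooth muscle and pericyte markers summed to between 5179 and 7412, mostly from Rgs5. Their median was -0.04 on day 3 (3 of 7 above 0), 0.52 on day 30 (4 of 7) and 0.62 on day 60 (5 of 7). On day 60 Pdgfrb was at 0.96, Tagln at 0.95, Cnn1 at 0.73, Acta2 at 0.62, Rgs5 at 0.01, Myh11 at -0.14 and Cspg4 at -0.62. Leaving out the C57BL/6 day 30 array gave day 30 medians of 1.26 (fibroblast), 0.999 (macrophage), 0.11 (endothelial) and 0.34 (smooth muscle and pericyte), against 1.29, 0.82, -0.19 and 0.52 with it. Of the adipocyte markers 2 were tested. Adipoq, the adiponectin gene, read 10.5 and 18.3 untreated, 63.5 and 63.6 on day 3, 49.2 and 361 on day 30 and 347 and 973 on day 60, a log2 difference of 3.84 on day 60 (limma adjusted p = 0.0614), while Fabp4 was at 0.29. Both untreated Adipoq signals lay below the signal limit of 121, so Adipoq could enter the test only through ligated arrays. The same held for the macrophage marker Mpeg1 (69.4 and 99 untreated) and for Cnn1 (32 and 28.8 untreated). The macrophage and smooth muscle counts and medians above include them. Of the epicardial and mesothelial markers only Upk3b was tested, with 130 and 72.8 untreated, 271 and 197 on day 3, 414 and 93.9 on day 30 and 194 and 171 on day 60. The B cell markers summed to 336 and 346 untreated and to 453 to 5252 after ligation, highest in C57BL/6 on day 60. Most of that highest sum was Ighm, an immunoglobulin gene, at 4997. The other tested B cell marker, Cd79a, read 116 and 140 untreated, 99.5 and 134 on day 3, 300 and 127 on day 30 and 144 and 91 on day 60. No marker of these lists lay below the offset on all arrays. The part of these cells in the IGF gene values was not tested. In RNA of whole tissue, fewer cells of a type and less RNA per cell cannot be told apart.

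**Figure D1:**
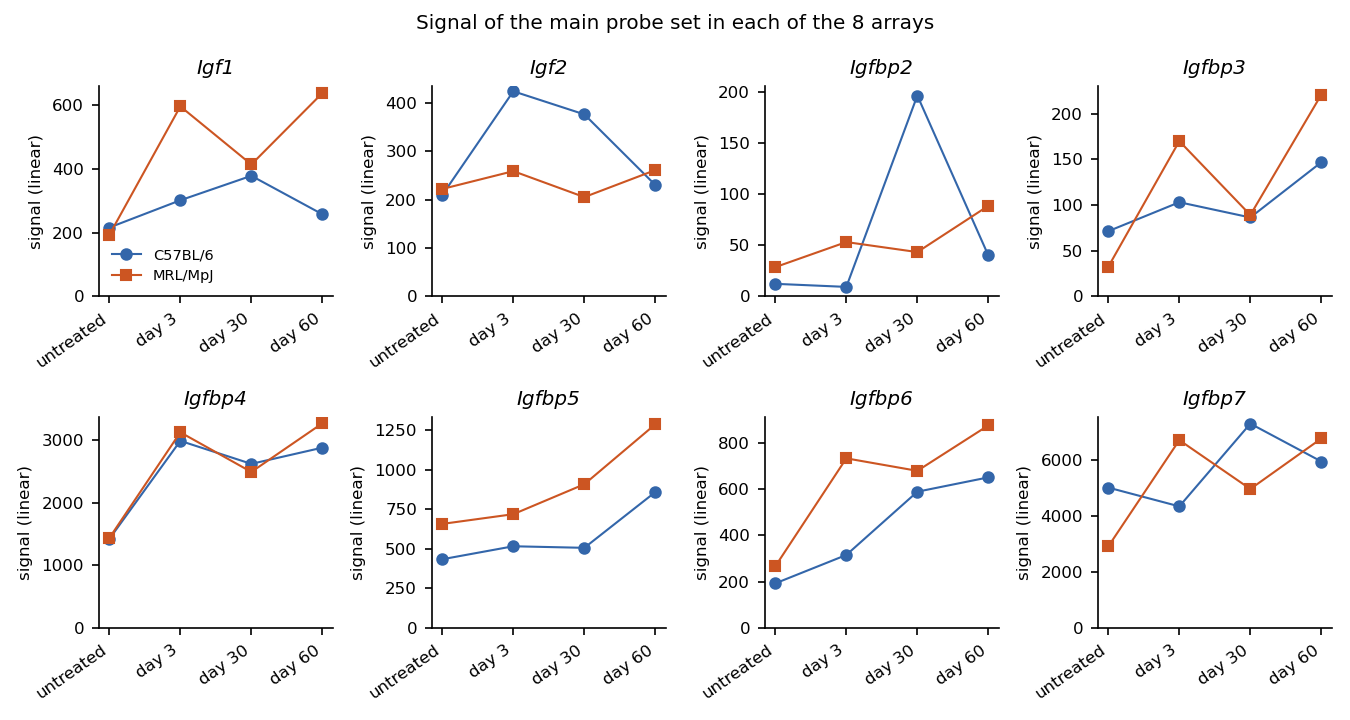
Signal of the main probe set of each of the 8 genes (vertical axis, MAS5 signal on a linear scale from 0, with its own range in each panel) in untreated hearts and on days 3, 30 and 60, with 1 point per array and 1 colour and line per strain. All 6 ligated arrays lie above both untreated arrays for Igf1, Igfbp3, Igfbp4 and Igfbp6, and Igfbp2 has a single array above 121, C57BL/6 on day 30.

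The promoters of these 4 genes are shown because they share the same split between ligated and untreated arrays. Each line is the 250 bases before the annotated start in RefSeq on GRCm38.p6, read 5′ to 3′ along the gene's strand, with motif matches in capitals. The windows are chr10:87860861-87861110 on the plus strand for Igf1, chr11:7213924-7214173 on the minus strand for Igfbp3, chr11:99040994-99041243 on the plus strand for Igfbp4 and chr15:102143936-102144185 on the plus strand for Igfbp6.
Igf1: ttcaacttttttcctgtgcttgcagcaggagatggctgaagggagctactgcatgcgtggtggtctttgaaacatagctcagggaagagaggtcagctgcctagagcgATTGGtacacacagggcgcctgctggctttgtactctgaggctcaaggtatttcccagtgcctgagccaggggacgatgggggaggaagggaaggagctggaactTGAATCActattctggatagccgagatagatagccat
Igfbp3: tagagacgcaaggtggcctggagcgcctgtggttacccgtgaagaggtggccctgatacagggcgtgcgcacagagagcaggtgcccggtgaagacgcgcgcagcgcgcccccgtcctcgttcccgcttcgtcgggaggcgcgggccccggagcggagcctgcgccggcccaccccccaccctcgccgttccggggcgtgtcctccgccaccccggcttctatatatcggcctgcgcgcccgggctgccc
Igfbp4: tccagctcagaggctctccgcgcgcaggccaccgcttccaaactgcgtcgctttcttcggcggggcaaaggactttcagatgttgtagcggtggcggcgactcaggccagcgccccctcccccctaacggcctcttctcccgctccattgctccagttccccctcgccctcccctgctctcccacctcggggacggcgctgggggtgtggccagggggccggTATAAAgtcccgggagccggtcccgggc
Igfbp6: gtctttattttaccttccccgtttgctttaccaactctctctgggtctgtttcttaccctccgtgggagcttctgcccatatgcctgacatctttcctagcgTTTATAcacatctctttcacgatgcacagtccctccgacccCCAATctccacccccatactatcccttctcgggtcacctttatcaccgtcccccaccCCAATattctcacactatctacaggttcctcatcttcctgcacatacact

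The motifs were searched on both strands as exact letters. They were the TATA box TATAAA, the GC box GGGCGG, the CCAAT box CCAAT, the AP-1 site TGANTCA, the E-box CACGTG, the FOXO site TGTTTAC and the SMAD palindrome GTCTAGAC, and no matches overlapped in the windows of the 8 genes. Igf1 held a match to the AP-1 letters, with A at the free middle base (TGAATCA), that begins 37 bases before the start. It also held a CCAAT match on the other strand at 142 bases. Igfbp4 held a TATA match 28 bases before the start, and Igfbp6 held CCAAT matches at 107 and 50 bases and a TATA match on the other strand at 148 bases. The Igfbp3 window, with 73.2% G and C, held no match. The same motifs occur in 12.4% (TATA), 33.8% (CCAAT) and 6.75% (AP-1) of the 32851 RefSeq windows of that length. No motif lay in all 4 windows, and AP-1 and CCAAT matches also lay in a window of Igfbp2 and of Igf2, respectively, outside these 4 genes. GC boxes, found in 32.7% of all windows, lay in windows of Igf2, Igfbp2 and Igfbp7, the E-box (6.02%) in one window of Igfbp2, and no window of the 8 genes held the FOXO (3.17%) or SMAD (0.167%) letters.

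Of the ligands, Igf1 had a higher signal after ligation in both strains on its main probe set, with the largest values in the MRL/MpJ hearts on days 3 and 60. Its main probe set read 216 in the untreated C57BL/6 heart and 193 in the untreated MRL/MpJ heart. In C57BL/6 the signal was 301 on day 3, 378 on day 30 and 257 on day 60. In MRL/MpJ it was 595 on day 3, 413 on day 30 and 637 on day 60. The groups did not overlap, and the highest arrays were MRL/MpJ on days 60 and 3. With the offset added, the MRL/MpJ ratios to untreated were 2.82 on day 3, 2.00 on day 30 and 3.01 on day 60, and the C57BL/6 ratios were 1.35, 1.66 and 1.17. Over both strains the log2 difference was 0.96 (SE 0.36) on day 3, 0.87 on day 30 and 0.91 on day 60, with limma adjusted p = 0.699, 0.438 and 0.452. Without the C57BL/6 day 30 array the day 30 value was 0.59 (SE 0.44, adjusted p = 0.711). With single arrays left out in turn the values ran from 0.52 to 1.41 on day 3, from 0.42 to 1.31 on day 30 and from 0.45 to 1.37 on day 60. Leaving out the untreated MRL/MpJ array gave 0.52, 0.42 and 0.46, and leaving out the untreated C57BL/6 array gave 1.41, 1.31 and 1.36.

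The other Igf1 probe sets did not give the same split. On 1452014_a_at the signal was 99.5 and 213 untreated (C57BL/6 and MRL/MpJ), 219 and 421 on day 3, 127 and 343 on day 30 and 324 and 332 on day 60. MRL/MpJ was the higher strain at each of the 4 times, and 5 of the 6 ligated arrays lay above both untreated arrays. On 1419519_at it was 240 and 222 untreated, 257 and 389 on day 3, 125 and 246 on day 30 and 200 and 260 on day 60. There 4 of 6 ligated arrays lay above both untreated ones, and the C57BL/6 day 30 array was the lowest of all.

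The probe sets of Igf2 disagreed. On the main one the highest arrays were C57BL/6 on days 3 and 30. The main probe set, 1448152_at, read 210 and 222 in the untreated C57BL/6 and MRL/MpJ hearts. It read 424 and 259 on day 3, 376 and 205 on day 30 and 230 and 261 on day 60. The log2 difference was 0.56 (SE 0.31) on day 3, 0.33 on day 30 and 0.16 on day 60, with limma adjusted p = 0.817, 0.690 and 0.892, and the day 30 value was 0.01 without the C57BL/6 array of that day. The other probe set, 1415931_at, was highest in the untreated C57BL/6 heart at 164 and lay between 13.9 and 93.2 on the ligated arrays, with 55.5 in the untreated MRL/MpJ heart. Ligated and untreated arrays overlapped on both probe sets, and no direction is given for Igf2.

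Igfbp4, which binds both IGFs and is known as an inhibitor that the protease PAPP-A cuts, had similar ratios to untreated in both strains. The main probe set, 1437405_a_at, read 1420 in the untreated C57BL/6 heart and 1436 in the untreated MRL/MpJ heart. In C57BL/6 it read 2987 on day 3, 2620 on day 30 and 2879 on day 60, and in MRL/MpJ 3124, 2491 and 3268. The lowest ligated array, at 2491, lay well above the higher untreated array. With the offset added, the ratios to untreated were 2.08, 1.83 and 2.01 in C57BL/6 and 2.15, 1.72 and 2.25 in MRL/MpJ. Over both strains the log2 difference was 1.08 (SE 0.23) on day 3, 0.83 on day 30 and 1.09 on day 60, with limma adjusted p = 0.250, 0.275 and 0.150. Without the C57BL/6 day 30 array the day 30 value was 0.75 (SE 0.25, adjusted p = 0.430). With an intensity trend and robust variances in limma the day 60 difference was called (adjusted p = 0.0462). Over all alternatives its adjusted p ran from 0.0462 to 0.857.

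The other 5 Igfbp4 probe sets likewise had 6 of 6 ligated arrays above both untreated arrays. Over all 6 probe sets the log2 difference ran from 0.91 to 1.08 on day 3, from 0.74 to 1.54 on day 30 and from 0.59 to 1.17 on day 60. The widest was 1421991_a_at, with 231 and 173 untreated, 626 and 309 on day 3, 897 and 447 on day 30 and 311 and 319 on day 60 (C57BL/6 first). On that probe set the C57BL/6 signal was the higher at all times but day 60. The 6 probe sets read the same gene on the same arrays and are not replicates of the hearts.

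**Figure D2:**
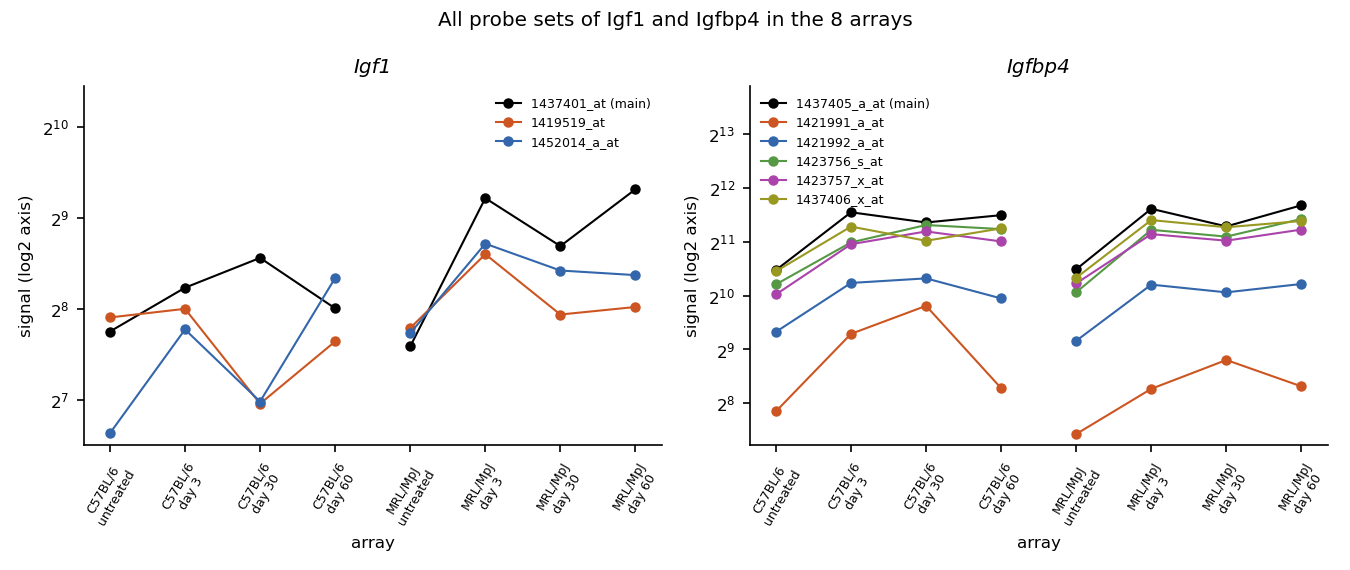
Signals (vertical axis, log2 scale) of the 3 probe sets of Igf1 and the 6 of Igfbp4 on the 8 arrays, with a line joining the arrays of each strain. Each Igfbp4 probe set has all 6 ligated arrays above both untreated arrays, while the Igf1 probe sets part on the C57BL/6 day 30 array, where the main one read 378 and the others 125 and 127.

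Igfbp6, which prefers IGF2 over IGF1, had the largest day 60 difference of the tested IGF genes. Its single probe set, 1417933_at, read 193 in the untreated C57BL/6 heart and 266 in the untreated MRL/MpJ heart. In C57BL/6 it read 315 on day 3, 589 on day 30 and 651 on day 60, and in MRL/MpJ 733, 679 and 875. The groups did not overlap, and the C57BL/6 day 3 array was the ligated array nearest to the untreated ones. On day 60 the ratio to untreated was 3.07 in C57BL/6 and 3.06 in MRL/MpJ, while on day 3 it was 1.55 and 2.58. The log2 difference was 1.002 (SE 0.29) on day 3, 1.37 on day 30 and 1.62 on day 60, with limma adjusted p = 0.536, 0.177 and 0.112. With single arrays left out the day 3 value ran from 0.60 (without MRL/MpJ day 3) to 1.41 (without C57BL/6 day 3), and the day 60 value from 1.53 to 1.70. By p-value the day 60 test ranked 42 of 8195 (unadjusted p = 0.000577). Without the C57BL/6 day 30 array the day 30 value was 1.14 (SE 0.32, adjusted p = 0.398). With an intensity trend and robust variances the day 60 difference was called (adjusted p = 0.0201). Over all alternatives its adjusted p ran from 0.0201 to 0.770.

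Igfbp3 encodes the main IGF carrier of the blood, where it forms a complex with an IGF and the acid-labile subunit. Its probe set was dim, at 71.4 and 32.5 in the untreated C57BL/6 and MRL/MpJ hearts. In C57BL/6 it read 103 on day 3, 86.4 on day 30 and 147 on day 60, and in MRL/MpJ 170, 89.1 and 221. The groups did not overlap, but the untreated MRL/MpJ array was the lowest of all, so the ratios in that strain (3.25, 1.93 and 4.08) rest on it. The C57BL/6 ratios were 1.32, 1.15 and 1.755. The log2 difference was 1.05 (SE 0.34) on day 3, 0.57 on day 30 and 1.42 on day 60, with limma adjusted p = 0.633, 0.533 and 0.205, and the day 30 value was 0.53 without the C57BL/6 array of that day. Without the untreated MRL/MpJ array the values fell to 0.50 on day 3, 0.03 on day 30 and 0.88 on day 60, and without the untreated C57BL/6 array they were 1.59, 1.12 and 1.96.

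Igfbp5, a binding protein that attaches to extracellular matrix, had its highest signal in both strains on day 60. The main probe set, 1452114_s_at, read 435 and 658 in the untreated C57BL/6 and MRL/MpJ hearts, 517 and 720 on day 3, 507 and 909 on day 30 and 860 and 1289 on day 60. Within each strain every ligated array lay above the untreated one, but across strains the C57BL/6 arrays of days 3 and 30 lay below the untreated MRL/MpJ array. On day 60 the ratio to untreated was 1.92 in both strains. The log2 difference was 0.18 (SE 0.23) on day 3, 0.33 on day 30 and 0.94 on day 60, with limma adjusted p = 0.910, 0.598 and 0.206, and the day 30 value was 0.47 without the C57BL/6 array. The second probe set, 1422313_a_at, read 204 and 223 untreated, 275 and 342 on day 3, 328 and 194 on day 30 and 222 and 485 on day 60, so that its day 60 signal was raised in MRL/MpJ but barely in C57BL/6.

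Igfbp7, which is abundant in vessel walls and binds IGFs weakly, was bright on its main probe set, and the order of the strains changed from time to time. It read 5014 in the untreated C57BL/6 heart and 2914 in the untreated MRL/MpJ heart. In C57BL/6 it read 4343 on day 3, 7300 on day 30 and 5947 on day 60, and in MRL/MpJ 6710, 4964 and 6770. The C57BL/6 day 3 array and the MRL/MpJ day 30 array lay below the untreated C57BL/6 array, so ligated and untreated arrays overlapped. The ratios to untreated were 0.867, 1.45 and 1.18 in C57BL/6 and 2.29, 1.70 and 2.31 in MRL/MpJ. Over both strains the log2 difference was 0.49 (SE 0.36) on day 3, 0.65 on day 30 and 0.73 on day 60, with limma adjusted p = 0.852, 0.507 and 0.533. Without the C57BL/6 day 30 array the day 30 value was 0.37, and without the untreated MRL/MpJ array the values were 0.063, 0.22 and 0.29. The other Igfbp7 probe sets were dim, from 10.7 to 95.0 on 1423585_at and from 25.6 to 105 on 1437804_at, and never reached the signal limit. On 1423585_at all 6 ligated arrays lay above both untreated arrays, with a day 60 log2 difference of 1.31 (SE 0.28), while 1437804_at was at -0.25 (SE 0.42) on day 60.

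Igfbp2, a binding protein of fetal tissues, liver and brain, was dim on most arrays. It read 12.3 and 28.6 in the untreated C57BL/6 and MRL/MpJ hearts, 9.3 and 53.1 on day 3, 196 and 43.3 on day 30 and 40 and 88.5 on day 60. The single array above 121 was the C57BL/6 day 30 array that stood apart from the rest. The untreated signals were at or below the offset of 28.6, so no ratio to them is given. Igfbp2 and Igfbp5 are neighbours on chromosome 1, but their highest arrays differed, C57BL/6 on day 30 for Igfbp2 and MRL/MpJ on day 60 for Igfbp5.

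**Figure D3:**
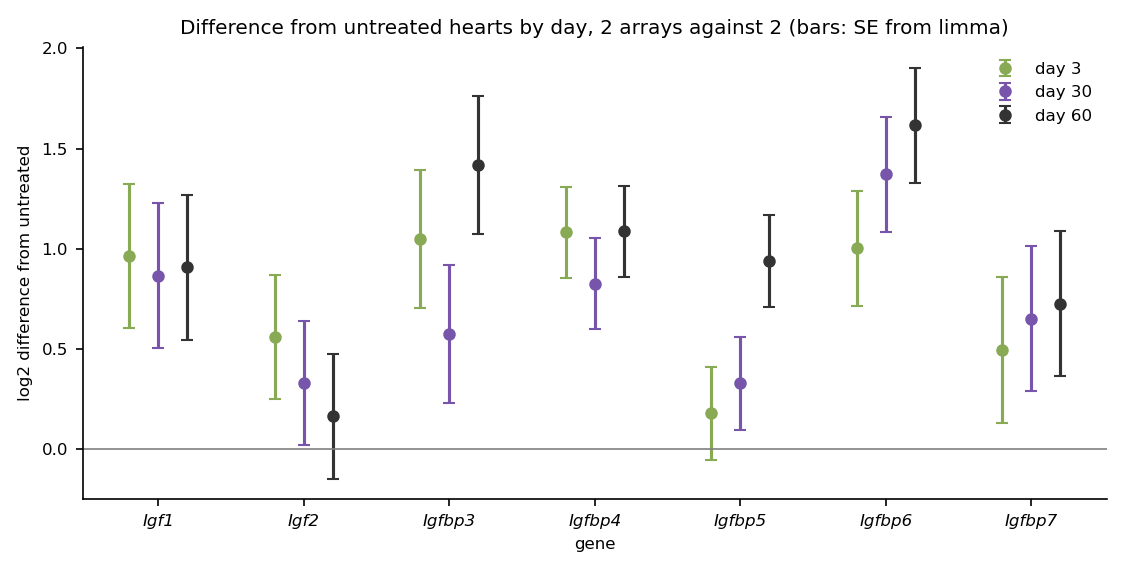
Log2 difference from untreated (vertical axis) of the 7 tested genes on days 3, 30 and 60, 2 arrays against 2, with the standard error of the limma model as bars. The values run from 0.16 (Igf2, day 60) to 1.62 (Igfbp6, day 60) and none was called. Those of Igf2 turned negative when all its probe sets were averaged, and that of Igfbp7 on day 3 fell to -0.0084 with 1 array left out.

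The array of a strain against its own untreated array has no replicate, so these are values without a test. In C57BL/6, 1 of the 8 genes was at least 2-fold above untreated on day 3 (Igfbp4), 2 on day 30 (Igfbp2 and Igfbp6) and 2 on day 60 (Igfbp4 and Igfbp6). The shares over all genes were 3.62%, 10.4% and 4.24%. In MRL/MpJ the counts were 5 on day 3 (Igf1, Igfbp3, Igfbp4, Igfbp6 and Igfbp7), 1 on day 30 (Igfbp6) and 6 on day 60 (those 5 and Igfbp2), where 5.45%, 3.62% and 4.55% of all genes passed. Because the untreated Igfbp2 signal is at or below the offset, its place in these counts depends on the offset, and without it the counts were 1 for C57BL/6 on day 30 and 5 for MRL/MpJ on day 60. No gene of the set was at least 2-fold below in either strain.

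Whether the change after ligation differed between the strains was tested with a strain-by-ligation term. It was called for 0 of the 7 genes, and for 0% of all genes. At an unadjusted p under 0.05 it passed for 0 of the 7 genes and for 2.04% of all genes. The largest values were those of Igfbp3 (log2 1.09, SE 0.46), Igf1 (0.90, SE 0.55) and Igfbp7 (0.86, SE 0.56), each with limma adjusted p = 0.99995. For Igfbp3 and Igfbp7 the untreated MRL/MpJ signal was below the untreated C57BL/6 signal, with log2 differences of -0.71 and -0.78. For Igfbp4 and Igfbp5 the term was 0.04 (SE 0.43 and 0.44), an error too wide to show that the strains changed alike. Under quantile normalization the Igfbp4 term was -0.025. Dropping C57BL/6 day 30 from the strain-by-ligation fit raised the term to 1.26 for Igfbp3, 1.21 for Igf1 and 1.18 for Igfbp7. The same fit gave 0.36 for Igfbp6, 0.11 for Igfbp4, -0.056 for Igfbp5 and -0.32 for Igf2. Day 30 then rests on the MRL/MpJ array alone, so they are given as values.

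**Figure D4:**
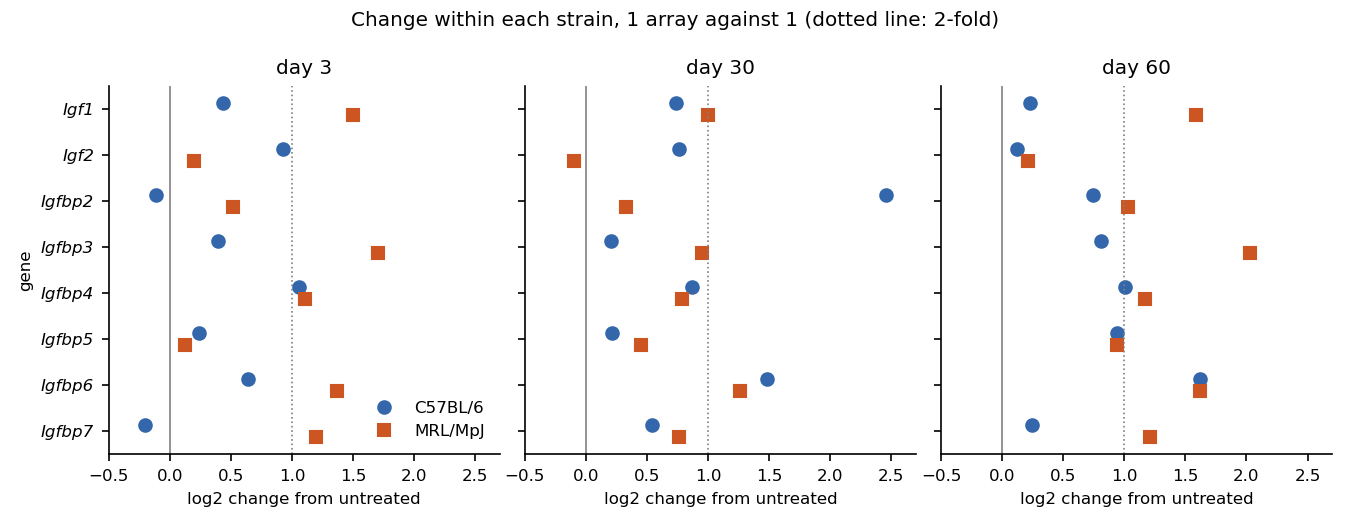
Log2 change from the untreated array of the same strain on days 3, 30 and 60 (horizontal axis), 1 point per array, for the 8 genes. On days 3 and 60 the MRL/MpJ points of Igf1, Igfbp3 and Igfbp7 lie to the right of the C57BL/6 points, and those of Igfbp4 lie close together.

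Across all times, Igfbp5 and Igfbp6 had a higher signal in MRL/MpJ than in C57BL/6 in 4 of 4 pairs of arrays. Over all genes this held for 7.38%. For Igfbp5 the log2 differences were 0.57 untreated, 0.46 on day 3, 0.81 on day 30 and 0.57 on day 60. The fitted value was 0.60 (SE 0.16), with limma adjusted p = 0.329. On its second probe set the strain difference was 0.19 (SE 0.28). For Igfbp6 the values were 0.42, 1.15, 0.20 and 0.41, and the fitted value was 0.54 (SE 0.20, adjusted p = 0.541). Igf1 was higher in MRL/MpJ in 3 of 4 pairs (0.53, SE 0.26, adjusted p = 0.662). Igf2 was lower in the fit (-0.30, SE 0.22, adjusted p = 0.769) but in only 2 of 4 pairs. Its value was -0.14 without the C57BL/6 day 30 array and 0.14 (SE 0.40) on its second probe set, so no direction is given. Of the 7 tested genes 0 were called by strain, against 0.22% of all genes, and 2 passed an unadjusted p under 0.05, against 7.96%.

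From day 3 to days 30 and 60 the set had no common direction, with 4 of the 8 genes above 0 and a median log2 difference of 0.07 (all genes, -0.04). Igfbp2, which was not tested, was at 0.94 (SE 0.53), with its high array being C57BL/6 on day 30. Of the 7 tested genes the largest values were those of Igfbp6 (0.49, SE 0.25) and Igfbp5 (0.45, SE 0.20), both higher at the later times, with limma adjusted p = 0.885 and 0.883. These became 0.38 and 0.52 with C57BL/6 day 30 left out. Igf2 was at -0.31 and Igfbp4 at -0.12, and without that array at -0.48 and -0.16. None of the 7 was called, nor was any gene on the array (0%), and at an unadjusted p under 0.05 the counts were 0 of 7 and 5.54% of all genes. The Igfbp5 value came mainly from day 60.

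The genes whose log2 values were most like each member's over the 8 arrays are given with Pearson's r, as a description. The arrays share the ligation and the array that stood apart, and the genes named are the extremes of all 8195. Igfbp4 ran closest to Rab3il1 (0.982), Rest (0.973) and Fn1, the matrix protein fibronectin (0.969). Igfbp6 ran closest to Cfl1, the actin-binding cofilin (0.990), Selenom (0.985) and Ccn2 (0.981), which encodes connective tissue growth factor. Ccn2 read 647 and 713 untreated and 1283 to 5381 after ligation. Igfbp5 ran closest to Anxa7 (0.988), Osbpl9 (0.986) and Jpt1 (0.984), and Igf1 to Ppp2r1b (0.947), Pdlim3 (0.941) and Rbp4 (0.940). For Igfbp7 they were Nucb2 (0.986), smooth muscle actin Acta2 (0.983) and Mrc1, the macrophage mannose receptor (0.964). For Igfbp3 they were App (0.967), Shisa5 (0.961) and Foxp1 (0.949), and for Igf2 Acan (0.932), Il15ra (0.928) and Gfpt2 (0.914). Rab3il1, Rest, Pdlim3, Rbp4 and Nucb2 lay below the signal limit of 121 on both untreated arrays. Like Igfbp3 they could be among the 8195 only through ligated arrays, which favours a likeness to genes that were higher there.

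Other genes of the pathway were described by lists, and in none of the lists was a gene called by limma at an adjusted p under 0.05 in any of the 6 comparisons. Of the tested genes named below, C1s1, Socs1, Socs3, Deptor, Foxo4, Plagl1 and Ccn3 lay below 121 on both untreated arrays. Like Igfbp3 they could enter the test only through ligated arrays, and the list counts and medians include them. The same holds for Adam28 and Prss23, which are in the list of genes that modulate the binding proteins. Of the 16 receptor and signalling genes, 11 were tested, and 4, 3 and 3 of them were above 0 on days 3, 30 and 60, with medians of -0.06, -0.24 and -0.20. The medians of all tested genes were 0.02, -0.01 and -0.06, and 52.2%, 49.5% and 42.5% of them were above 0. These shares apply to the counts of all the lists. With C57BL/6 day 30 left out, 1 of the 11 was above 0 on day 30, and the median was -0.24 (all tested genes, -0.05). Igf2r, the receptor that clears IGF2, read 1693 and 1756 untreated, 1554 and 1623 on day 3, 1098 and 1033 on day 30 and 1166 and 1205 on day 60. Its day 30 log2 difference was -0.68 (SE 0.22, adjusted p = 0.350), and -0.75 without the C57BL/6 array. Grb14, an adaptor that inhibits insulin receptor signalling, was at -0.89 on day 60 (SE 0.28, adjusted p = 0.337), and Irs1, a docking protein of the insulin and IGF1 receptors, at -0.61 on day 30 and at -0.24 without that array. Insr, the insulin receptor, had its largest value in the strain-by-ligation term (-0.64, SE 0.49). Igf1r itself was dim, at 155 and 110 untreated and 120 to 257 after ligation, and overlapped.

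Of 24 genes whose proteins cut, hold or otherwise modulate the binding proteins, 18 were tested and 13 were above 0 on each of the 3 days, with medians of 0.42, 0.49 and 0.42. On day 30 the count was 12 of 18 and the median 0.46 with the C57BL/6 array left out. Fn1, which binds IGFBP3 and IGFBP5, read 558 and 442 untreated, 2276 and 3679 on day 3, 1904 and 1466 on day 30 and 2705 and 2327 on day 60. Its log2 difference was 2.48 (SE 0.31) on day 3 and 2.27 on day 60, with limma adjusted p = 0.0637 and 0.0614. C1s1, a complement protease known to cut IGFBP5, read 104 and 85.4 untreated and 551 and 588 on day 60, a log2 difference of 2.28 (SE 0.27, adjusted p = 0.0505). Both untreated signals were below the signal limit, so C1s1 could enter the test only through ligated arrays. C1ra, which activates C1s1, was at 1.86 on day 60 (adjusted p = 0.0840), and the gelatinase Mmp2 at 1.62 on day 3. Pappa, whose protein cuts IGFBP4, lay between 9.3 and 48.6 on the 8 arrays and was not tested.

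The growth hormone list, with 9 of 9 genes tested, had 4, 5 and 4 above 0 on days 3, 30 and 60 and medians of -0.02, 0.05 and -0.18. The day 30 values were 4 of 9 and -0.18 with the C57BL/6 array left out. Ghr, the growth hormone receptor, was at 0.00, -0.05 and 0.05 (SE 0.28), with 0.29 on day 30 without that array. Socs3, a feedback inhibitor of cytokine receptors, was at 0.99, 1.47 and 1.20 (SE 0.43), with 1.60 on day 30 without that array and 1.49 (SE 0.52) in the strain-by-ligation term. It read 83.8 and 14.2 in the untreated C57BL/6 and MRL/MpJ hearts and 96.8 to 170 after ligation. The 14.2 lies below the offset of 28.6, and these differences rest on it. Socs1, a related inhibitor, was at -1.08 (SE 0.66) in the strain-by-ligation term, with MRL/MpJ day 60 at 14.9, also below the offset. Cish, another of these inhibitors, was at -0.59 on day 60 (SE 0.24), and Stat5a, a transcription factor that growth hormone activates, at -0.54 on day 30 and at -0.31 without the C57BL/6 array.

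Of 16 genes of AKT and mTOR signalling 11 were tested, with 6, 3 and 4 above 0 and medians of 0.01, -0.15 and -0.05. Leaving out C57BL/6 day 30 gave 4 of 11 and -0.09 on day 30. Ddit4, a stress-induced inhibitor of mTOR, was at -0.93 (SE 0.72) on day 30 and at -0.24 without that array. Deptor, another mTOR inhibitor, was lower in MRL/MpJ in the strain fit (-0.73, SE 0.16, limma adjusted p = 0.207). It reached 121 only on the C57BL/6 arrays of days 3 and 60, at 121.4 and 131.4. Deptor could thus enter the strain fit only through the strain where it was higher. Akt1 was at -0.67 on day 3 (SE 0.23), and Rheb, which activates mTOR, at -0.60 on day 30 and at -0.29 without the C57BL/6 array.

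A list of 12 FOXO genes and targets joined the FOXO factors, which AKT holds out of the nucleus, with genes they are known to switch on. Of these 10 were tested, 3 of them the factors Foxo1, Foxo3 and Foxo4, and 5, 6 and 7 were above 0 with medians of 0.00, 0.09 and 0.27. For day 30 these became 7 of 10 and 0.24 with C57BL/6 day 30 left out. Pdk4, a kinase that restrains glucose oxidation, was at -1.36 on day 3, -0.76 on day 30 and -1.04 on day 60 (SE 0.77), and at 0.24 on day 30 without that array. Foxo3 differed by strain, with 265 and 680 in the untreated C57BL/6 and MRL/MpJ hearts, 413 and 1014 on day 60 and a fitted log2 difference of 1.09 (SE 0.17, limma adjusted p = 0.0668). Cdkn1b, a cell cycle inhibitor, was at 0.87 (SE 0.22) for days 30 and 60 against day 3, and Txnip, an inhibitor of thioredoxin, at 0.83 on day 60 (SE 0.31).

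Of 10 genes that bind IGF2 RNA or are imprinted like Igf2, 5 were tested, and 5, 2 and 3 were above 0 with medians of 0.18, -0.43 and 0.12. The day 30 values became 2 of 5 and -0.23 with C57BL/6 day 30 left out. Plagl1, an imprinted zinc finger factor, was at 1.43, 1.38 and 1.57 (SE 0.34), with 1.09 on day 30 without that array. Meg3, an imprinted noncoding RNA, was at 0.98 on day 3 (SE 0.26). Cdkn1c, an imprinted cell cycle inhibitor, had its largest value in the strain-by-ligation term (0.81, SE 0.76), and Dlk1 for the later days against day 3 (-0.49, SE 0.23).

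Of 14 genes that share the N-terminal IGFBP domain, 7 were tested and 5, 6 and 6 were above 0, with medians of 0.36, 0.41 and 0.89. When C57BL/6 day 30 was left out, the day 30 values were 5 of 7 and 0.397. Ccn2 was at 1.62, 2.16 and 2.55 (SE 0.40, limma adjusted p = 0.0843 on day 60), with 1.63 on day 30 without that array. Ccn5 was at 1.74, 1.70 and 2.35 (SE 0.44), with 0.91 on day 30 without it. Ccn3 was at 1.23 on day 3 (SE 0.45), and Crim1 at 0.89 on day 60 (SE 0.26).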

How the data were processed

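The intensity values are the MAS5 signals the authors deposited, 1 column per array, for which the submitters' processing notes name MAS5. MAS5 scales each array to a common trimmed mean, and the 2 to 98% trimmed means were 247.1 to 248.2. Other upstream settings are not given in the sources used here. Of 22626 probe sets, 20380 had 1 gene symbol, 691 several and 1555 none. Only those with 1 symbol were used. For each of the 12393 genes the probe set brightest on average on the log2(signal + 28.6) scale was taken (28.6 is the 20th percentile of all signals). Genes at or above 121 (the median) on at least 2 arrays, 8195 in all, were fitted with limma 3.58.1 in R 4.3.3, as strain plus time point with 3 residual degrees of freedom, and with a strain-by-ligation term (2 residual degrees of freedom). P-values were adjusted by Benjamini-Hochberg and called under 0.05. The fit was also run on simulated data, with independent noise around each gene's mean and changes added to some genes. Those data held no array that stood apart, so the run does not show how the fit deals with one. A fold change on the log2(signal + offset) scale understates the change of dim genes, and the number of arrays limits the precision.

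The members, the pathway and marker lists and the tests were chosen with earlier results of these data known. Named are all 8 genes with all their probe sets, the 3 genes most correlated with each tested one, and from each pathway list the 4 genes with the largest change over the comparisons, while Igf1r, Ghr and Pappa, and the marker genes given by name, were chosen after their values were seen. Promoter windows came from RefSeq on GRCm38.p6, with 12 windows for 8 of 8 genes. Alternatives were other offsets, filters, probe set rules, normalizations and variance models, strain or time terms left out, and each array left out in turn.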

Additional observations from a re-analysis of the deposited data

How the results depend on the processing

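With 1 array per strain and time point, no call on the IGF genes held across settings: only the intensity trend with robust variances called any, Igfbp4 (adjusted p = 0.0462) and Igfbp6 (0.0201) on day 60. Taking the mean of all probe sets of a gene turned Igf2 to -0.13, -0.52 and -0.49 on days 3, 30 and 60 and to 0.64 in the strain-by-ligation term. It also gave -0.057 for Igfbp4 by strain and -0.035 for Igfbp7 in that term. Quantile normalization gave -0.023 and -0.025 for Igfbp4 by strain and in the term. Leaving out each array in turn gave -0.0084 to 0.998 for Igfbp7 on day 3 and -0.15 to 0.47 for Igf2 on day 60. For days 30 and 60 against day 3 it gave -0.34 to 0.18 (Igf1), -0.38 to 0.27 (Igfbp3) and -0.31 to 0.70 (Igfbp7). By strain it gave -0.057 to 0.38 (Igfbp3) and -0.38 to 0.086 (Igfbp7), and in the term -0.019 to 0.11 (Igfbp4), -0.056 to 0.12 (Igfbp5) and -0.11 to 0.36 (Igfbp6). The counts of genes called over the array, on days 3, 30 and 60 and by strain, were 0, 1, 3 and 18. They were 10, 8, 27 and 30 with an offset of 84.8, and 14, 6, 24 and 28 with a filter on the mean. An intensity trend with robust variances gave 24, 32, 84 and 43. Without a filter, 0 were called on days 30 and 60 and 8 by strain. The mean of probe sets gave 4 on day 3 and 10 by strain, and probe sets in place of genes 1 and 32. Median centring gave 6 on day 60 and 11 by strain, and time point alone gave 6 on day 60. Leaving out each array gave 0 to 186 on day 30, 0 to 30 on day 60 and 7 to 14 by strain. Of the 8 genes, the count at least 2-fold above untreated became 1 for C57BL/6 on day 60 with an offset of 84.8 or quantile normalization, and 3 for MRL/MpJ on day 30 with an offset of 16. The cause of these shifts was not tested. Dim signals limit Igfbp2 and Igfbp3.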
